A study of Mus musculus with 4 samples.

Results

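The genes described here are the Hox cluster genes of the mouse, taken as every gene symbol made of Hox, a cluster letter from a to d and a number. There were 39 of them among 25239 gene symbols, 11 in the Hoxa cluster, 10 in Hoxb, 9 in Hoxc and 9 in Hoxd. Messenger RNA was counted in 4 libraries of mouse embryonic stem cells (mESC) that all carried the genotype Ogt fl/fl, in which the gene of O-GlcNAc transferase is flanked by recombination sites. In 2 libraries the cells had grown for 6 days with 4-hydroxytamoxifen (4-OHT), which generates the induced knockout (Ogt iKO). The other 2 came from cells grown without 4-OHT (control). All cultures grew on mitomycin C-treated embryonic fibroblasts as feeders and were sorted by flow cytometry in a way meant to leave the feeders out, with an added selection for yellow fluorescent protein described for the treated cells alone, so that selection and treatment cannot be told apart. No group received 4-OHT with Ogt intact. The labels do not say whether the replicates were separate cultures, so p-values measure only the spread between these libraries.

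Hox genes encode homeodomain transcription factors that give cells of the embryo their position along the body axis. Within each cluster the genes lie in the order in which they are used from head to tail, with low numbers at the anterior end and high numbers at the posterior end, and genes of the same number in different clusters are paralogues. In embryonic stem cells most Hox genes are held near silence by Polycomb complexes while trithorax complexes keep them ready for activation, and retinoic acid and Cdx factors are known to open them during differentiation. The fly counterpart of Ogt is itself a Polycomb group gene. Fibroblasts, unlike stem cells, keep the Hox expression of their place of origin in the body.

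The libraries held 14668489 to 16504204 counts. The controls held 2963 and 3108 counts of Ogt, the deleted gene, and the Ogt iKO libraries held 437 and 389. Of 9 markers of mESC, 8 fell and 1 did not pass the test, where 32.0% of all genes tested were called lower. The summed level of the 9 was 2171 and 2463 CPM (counts relative to library size, scaled by the trimmed mean method, TMM) in Ogt iKO against 4006 and 4004 in control. Markers of fibroblasts were not at 0 in any library. The summed level of 9 defining ones (Col1a1, Col1a2, Col3a1, Dcn, Lum, Postn, Prrx1, Twist2 and Thy1) was 856 and 987 CPM in the controls, 2227 CPM in Ogt iKO replicate 1 and 478 CPM in Ogt iKO replicate 2. None of the 9 was at 0 in any library and none passed the test with all libraries. Leaving out 1 library leaves 1 in its group, so calls in such a fit hold no spread between libraries of that group. Leaving out 1 Ogt iKO library gave log2 fold changes in opposite directions. Without replicate 1, Col1a1 (-0.75), Col1a2 (-0.59), Dcn (-1.75) and Twist2 (-1.43) were lower in Ogt iKO. Without replicate 2, Col1a1 (1.55), Col1a2 (1.30) and Dcn (0.35) were higher. The labels name CD90.2, the product of Thy1, as the sign of mESC in the sort and CD326, the product of Epcam, as that of the feeders. Thy1 is otherwise known as a fibroblast gene and Epcam as a stem cell gene, and both are listed so here, so which cells the gate kept is not certain. Results are therefore also given without Ogt iKO replicate 1 where that changes them.

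Summed over all 39 genes, Hox transcripts were at similar, low levels in both groups, while the share of each cluster was different. The Hox counts added up to 1822 and 1533 in the controls and 2180 and 1605 in the Ogt iKO libraries, or 118 and 99.9 CPM against 128 and 103 CPM. The groups overlapped, and the ratio of their means was 1.06. That ratio was below 1 without Hoxb1 (0.941), without Ogt iKO replicate 1 (0.951) or without control replicate 2 (0.981), so it has no settled direction. Hoxa made up 46.0% and 45.1% of the Hox counts of the controls and 19.8% and 20.9% of those of Ogt iKO. Hoxb made up 43.0% and 41.0% in control and 58.8% and 60.2% in Ogt iKO. Hoxc went from 6.09% and 8.15% to 12.3% and 9.41%, and Hoxd from 4.83% and 5.81% to 9.13% and 9.47%.

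On the CPM scale, the Hoxa sum was 54.2 and 45.0 CPM in control and 25.2 and 21.7 CPM in Ogt iKO, a mean ratio of 0.472. The Hoxb sum was 50.7 and 40.9 CPM in control and 75.0 and 62.3 CPM in Ogt iKO, a ratio of 1.5. Of that sum Hoxb1 held a mean of 8.23 CPM in control and 20.9 CPM in Ogt iKO, and Hoxb9 4.83 and 17.2 CPM. The log2 fold changes of the 10 tested Hoxb genes were above 0 for 5 and below 0 for 5, so the higher sum does not describe the cluster gene by gene. The Hoxc sum was 7.17 and 8.15 CPM against 15.7 and 9.73 CPM (ratio 1.66), and the Hoxd sum 5.69 and 5.80 CPM against 11.6 and 9.80 CPM (ratio 1.87). For each cluster the groups did not overlap, with Hoxa lower and the other 3 higher in Ogt iKO. These sums were not tested, since 2 libraries against 2 allow no exact permutation p below 0.33. In bulk RNA, fewer cells of a type and less RNA per cell cannot be told apart. Without Ogt iKO replicate 1 the ratios were 0.436, 1.36, 1.27 and 1.71 for Hoxa, Hoxb, Hoxc and Hoxd. The Hoxc ratio rested on Hoxc13 and on that library: without both it was 0.901, a combination chosen after seeing the data.

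**Figure D1:**
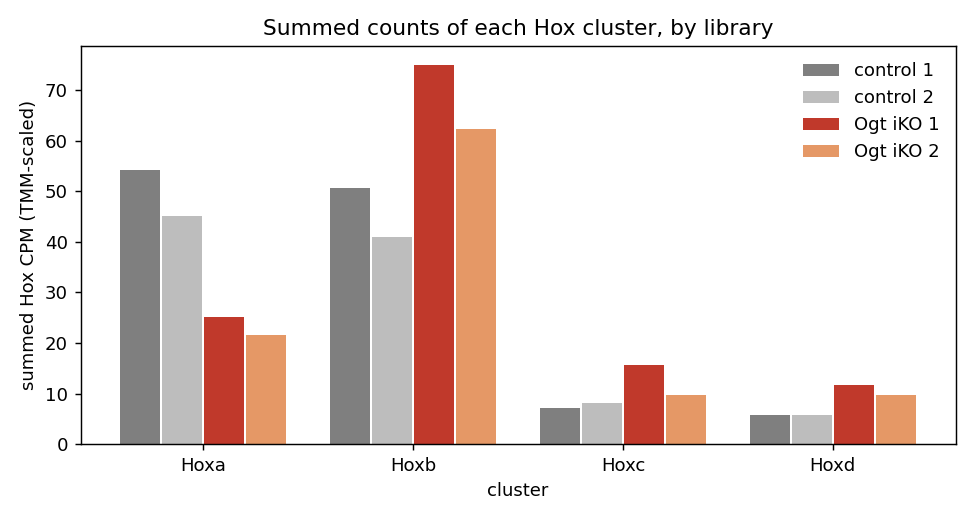
Bars give the summed CPM of the Hox genes of each cluster in each of the 4 libraries, with controls in grey and Ogt iKO in red and orange. Both Ogt iKO bars lie below both controls for Hoxa and above them for Hoxb, Hoxc and Hoxd.

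Of the 39 genes, 29 had enough counts to be tested and 10 did not. Of the tested genes 26 passed the filter on low counts through libraries of both groups, while Hoxc9, Hoxd1 and Hoxd9 passed it through the Ogt iKO libraries alone. Hoxa9, Hoxa10 and Hoxc8 had 2 control libraries but only 1 Ogt iKO library past its cut. For Hoxa9 and Hoxa10, which are high in control, direction and passing of the filter are thus not independent. In edgeR's quasi-likelihood test, adjusted by Benjamini-Hochberg over all 14525 genes tested, 7 Hox genes rose in Ogt iKO and 8 fell, a call being an adjusted p under 0.05. That is 51.7% of the tested members, against 65.3% of all genes tested. By direction it is 24.1% higher and 27.6% lower, against 33.2% and 32.0% of all genes. The share of Hox genes called was thus not above that of other genes. Their median abundance in the fit was 1.28 log2 CPM, against 4.62 for all genes tested. Their median log2 fold change was 0.049, against 0.024 for all genes, and it was -0.51 without Ogt iKO replicate 1 and -0.21 with a stricter filter on low counts. The groups did not overlap for 24 of the 29, where 83.2% of all genes tested had groups that do not overlap.

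The direction of the calls differed by cluster. In Hoxa 7 of 8 tested genes fell and 0 rose, in Hoxb 3 of 10 rose and 1 fell, in Hoxc 2 of 7 rose and 0 fell, and in Hoxd 2 of 4 rose and 0 fell. Among all genes tested 33.2% were called higher and 32.0% lower. The share that fell in Hoxa was above that of all genes, while the shares that rose in Hoxb and Hoxc were not. The share that rose in Hoxd was higher but covers only 4 genes. No test set these shares against those of all genes. The median log2 fold change was -1.04 in Hoxa, -0.028 in Hoxb, 0.53 in Hoxc and 1.26 in Hoxd. The Hoxd value covers 4 genes, of which Hoxd1 and Hoxd9 passed the filter through the Ogt iKO libraries alone, and the median was 0.45 over all 9 Hoxd genes with no filter and 2.06 over 3 with the stricter one. Without Ogt iKO replicate 1 the medians were -1.04 in Hoxa, -0.13 in Hoxb, 0.16 in Hoxc and 1.21 in Hoxd. Whether the clusters differ from each other was not tested. Of the 15 calls, 9 (among them Hoxa5, Hoxa9, Hoxa10, Hoxb1, Hoxb9, Hoxc13, Hoxd8 and Hoxd9) were kept under every scaling, filter and tool tried. The other 6 were each lost under at least 1 of them. The 9 kept their direction with any 1 library left out, in fits that hold 1 library in a group.

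The 6 Hox genes with the smallest adjusted p were Hoxb9, Hoxa9, Hoxa5, Hoxc13, Hoxb1 and Hoxd8, and the sequences before the start sites of 4 of them follow, since DNA methylation, which sits on CpG pairs, is a subject of the study. Hoxb9 and Hoxc13 are not among the RefSeq promoters used. The sequences are from RefSeq's annotation of GRCm38.p6 and end 1 base before the start site, except that of Hoxb1, which ends 12 bases earlier because an annotated exon of Hoxb1 begins there. Capitals mark each CG. The Hoxa9 sequence is chr6:52227371-52227620 on the minus strand, inside an intron of a longer Hoxa9 transcript. The Hoxa5 sequence is chr6:52204588-52204837 on the minus strand, inside introns of longer transcripts of Hoxa3 and Gm28308 and of the antisense gene Hoxaas3. The Hoxb1 sequence is chr11:96365508-96365745 on the plus strand, and the Hoxd8 sequence is chr2:74704365-74704614 on the plus strand, inside an intron of the antisense gene Hoxd3os1.
Hoxa9, lower in Ogt iKO: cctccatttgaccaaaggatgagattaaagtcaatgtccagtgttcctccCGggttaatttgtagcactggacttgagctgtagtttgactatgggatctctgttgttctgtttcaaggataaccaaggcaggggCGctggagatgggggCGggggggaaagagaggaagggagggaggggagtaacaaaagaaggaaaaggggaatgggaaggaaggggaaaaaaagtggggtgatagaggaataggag
Hoxa5, lower in Ogt iKO: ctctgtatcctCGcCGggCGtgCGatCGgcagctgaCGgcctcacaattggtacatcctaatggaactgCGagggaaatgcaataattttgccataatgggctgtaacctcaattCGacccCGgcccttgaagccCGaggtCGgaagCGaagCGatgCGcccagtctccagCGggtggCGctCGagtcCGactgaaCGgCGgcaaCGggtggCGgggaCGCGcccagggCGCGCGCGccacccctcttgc
Hoxb1, higher in Ogt iKO: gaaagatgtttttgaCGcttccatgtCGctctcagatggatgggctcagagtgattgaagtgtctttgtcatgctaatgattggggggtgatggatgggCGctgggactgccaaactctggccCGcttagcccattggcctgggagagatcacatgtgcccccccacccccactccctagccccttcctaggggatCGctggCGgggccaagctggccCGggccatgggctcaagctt
Hoxd8, higher in Ogt iKO: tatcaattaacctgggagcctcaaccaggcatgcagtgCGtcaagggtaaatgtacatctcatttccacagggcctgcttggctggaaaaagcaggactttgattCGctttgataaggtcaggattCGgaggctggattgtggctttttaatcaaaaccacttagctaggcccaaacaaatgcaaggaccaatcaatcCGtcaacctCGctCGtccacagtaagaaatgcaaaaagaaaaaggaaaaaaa

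In the 250 bases before the start site, Hoxa9 had 3 CG pairs, Hoxa5 had 28, Hoxb1 had 7 and Hoxd8 had 6. The median was 6 over 27025 RefSeq promoters and 12 over the 22 Hox genes among them, which ran from 2 in Hoxd11 to 35 in Hoxa13. Hoxa9 and Hoxa5 both fell, so the pair of falling genes shown covered both a CpG-poor and a CpG-rich stretch, that of Hoxa9 inside an intron of a longer Hoxa9 transcript. Over the Hox promoters the median was 7 CG pairs for the 6 genes that fell, 10 for the 4 that rose and 18 for the 4 that were tested and not called. The 6 that fell ran from 3 to 28. The stretches of Hoxa3, Hoxa7, Hoxb1, Hoxc4 and Hoxd9 overlap an annotated exon of the same gene. Which start sites these cells use is not known here, so the medians need not describe the promoters in use. The letters TGATNNAT, which joint sites of Hox and Pbx proteins can take, were searched on both strands. They were found before Hoxa2, Hoxb1 and Hoxb8, that is in 3 of 22 Hox promoters, and in 7.91% of all promoters. In Hoxb1 the match was TGATGGAT, beginning 162 bases before the start site.

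Hoxa lies on chromosome 6 from 52155367 to 52260880 in GRCm38, with all of its genes on the minus strand. Of its tested genes 7 fell, and the exception was Hoxa4. Hoxa2, which specifies the second pharyngeal arch, had 67 and 44 counts in control and 34 and 27 in Ogt iKO (log2 fold change -0.94, SE 0.284, adjusted p 0.0173, edgeR). Hoxa3, needed for thymus and parathyroid, had 104 and 83 counts against 79 and 54 (-0.58, SE 0.222, adjusted p 0.0465, close to the threshold). Hoxa4 had 42 and 43 counts against 41 and 25 and did not pass the test (-0.45, adjusted p 0.181).

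Hoxa5, known for its part in lung and cervical vertebrae, had 149 and 110 counts in control against 39 and 47 in Ogt iKO, or 31.6% of the control CPM (log2 fold change -1.66, SE 0.237, adjusted p 0.000351, edgeR). Hoxa7 had 31 and 36 counts against 14 and 18 (-1.14, SE 0.313, adjusted p 0.0116). Hoxa9, a gene of axial patterning and of blood stem cells, had 42 and 42 counts against 7 and 10 and was left at 19.3% of the control CPM (-2.37, SE 0.334, adjusted p 0.000330). Hoxa10, known for vertebral and uterine patterning, had 108 and 63 counts in control and 21 and 5 in Ogt iKO. It had the largest fall of the tested Hox genes (-2.80, SE 0.471, adjusted p 0.000907), with no overlap between groups, and dropping Ogt iKO replicate 1 gave -4.06 while dropping replicate 2 gave -2.19. The Ogt iKO library with more fibroblast transcript, replicate 1, was the lower of the pair for Hoxa5, Hoxa7 and Hoxa9 and the higher for Hoxa10. Replicate 1 was also the higher for Hoxa2, Hoxa3, Hoxa4, Hoxa6, Hoxa11 and Hoxa13, and for the Hoxa sum (25.2 against 21.7 CPM). The part that fibroblast RNA has in the Hoxa counts was not tested.

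Hoxa6, Hoxa11 and Hoxa13 had too few counts to test. Hoxa6 had 10 and 14 counts in control and 7 and 2 in Ogt iKO, so its groups did not overlap. Hoxa11 had 10 and 3 against 11 and 2, and Hoxa13 had 1 and 3 against 5 and 2, and both overlapped. Calls of Hoxa2 were lost with DESeq2 and without control replicate 1, and those of Hoxa7 with DESeq2, without Ogt iKO replicate 1 and without control replicate 2. The call of Hoxa3 was lost in 6 of the 12 alternatives, including scaling by library totals alone. In the GENCODE annotation, 25.4% of the exon length of Hoxa3 and 20.4% of that of Hoxa7 lies under exons of antisense transcripts, among them Hoxaas2 and Hoxaas3. Whether counting used the strand is not stated. The deposited counts of those antisense genes were small, with 11 and 10 in control against 2 and 1 in Ogt iKO for Hoxaas2 and at most 1 for Hoxaas3.

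**Figure D2:**
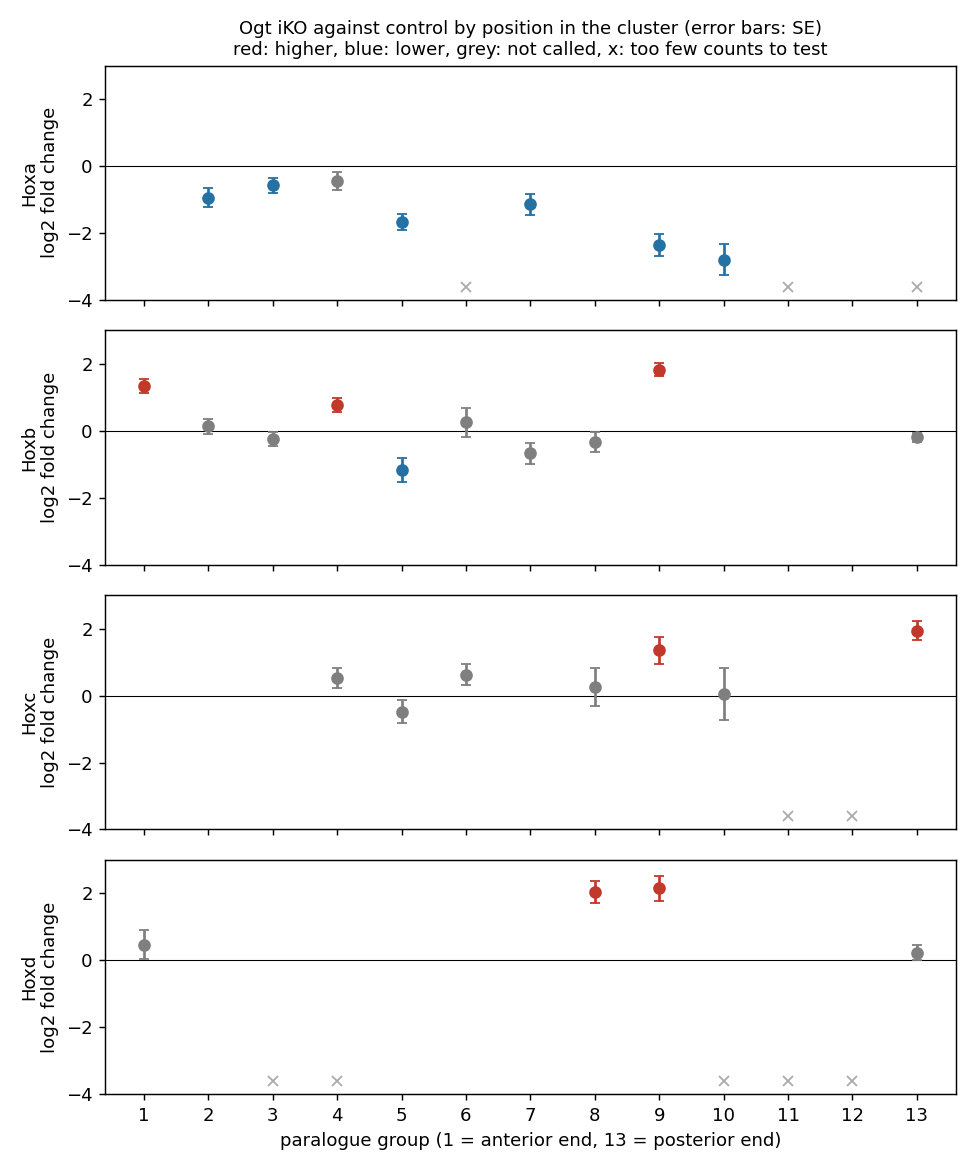
Each panel is a cluster and each point a tested Hox gene reported here at its paralogue number, with its log2 fold change (Ogt iKO against control) and standard error on the vertical axis. Colours give the call (red higher, blue lower, grey not called) and crosses mark the 10 untested genes. In Hoxa every point shown is below 0, with Hoxa10 at -2.80, while the highest points are Hoxd9 at 2.16 and Hoxd8 at 2.05.

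Hoxb lies on chromosome 11 from 96194316 to 96368254, on the plus strand, and moved in both directions. Its anterior-most gene, Hoxb1, which gives the fourth hindbrain segment its identity, had 158 and 96 counts in control and 383 and 300 in Ogt iKO. Both Ogt iKO libraries stood above both controls, at 2.53 times the control CPM (log2 fold change 1.34, SE 0.208, adjusted p 0.000572, edgeR). Without 1 library the value ran from 1.02 to 1.73. Hoxb4, a gene of the neck vertebrae that is also used to expand blood stem cells, had 40 and 45 counts against 85 and 70 (0.78, SE 0.214, adjusted p 0.0113). Hoxb9, which patterns the thoracic skeleton, had 81 and 68 counts against 333 and 230, or 3.55 times the control CPM. It had the smallest adjusted p of the Hox genes (1.83, SE 0.188, adjusted p 5.9e-05), and its log2 fold change with 1 library left out ran from 1.62 to 1.98. Ogt iKO replicate 1, with more fibroblast transcript, was the higher of the pair for every Hoxb gene, such as Hoxb1 (22.4 and 19.3 CPM) and Hoxb9 (19.5 and 14.8 CPM). The part that fibroblast RNA has in the Hoxb counts was not tested.

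The genes between Hoxb4 and Hoxb9 did not follow them. Hoxb5 was the only called Hoxb gene that fell in the fit of all 4 libraries, from 42 and 28 counts in control to 21 and 12 in Ogt iKO (log2 fold change -1.16, SE 0.351, adjusted p 0.0176, edgeR). Its call was lost with DESeq2, without Ogt iKO replicate 2 and without control replicate 1. Hoxb6 had 12 and 7 counts against 13 and 11 (0.25, adjusted p 0.620). Hoxb7 had 39 and 30 against 29 and 17 (-0.67, adjusted p 0.0926), and was at -1.02 without Ogt iKO replicate 1. Hoxb8 had 40 and 33 against 39 and 23 (-0.32, adjusted p 0.363). None of Hoxb6, Hoxb7 and Hoxb8 passed the test with all libraries, and the groups overlapped for Hoxb6 and Hoxb8.

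Hoxb2, Hoxb3 and Hoxb13 held many of the cluster's counts without passing the test. Hoxb2 had 108 and 74 counts in control and 123 and 89 in Ogt iKO (log2 fold change 0.13, adjusted p 0.624, edgeR). Its sign turned without Ogt iKO replicate 1 (-0.035) and without control replicate 2 (-0.12). Hoxb3 had 77 and 70 counts against 74 and 58 (-0.24, adjusted p 0.322). In GENCODE, 52.9% of the exon length of Hoxb3 and 27.3% of that of Hoxb2 lies under exons of the antisense gene Hoxb3os, which itself had 1 to 7 counts per library. Hoxb13, a gene of the tail end of the body and of the prostate, lies apart from the rest of the cluster and had 187 and 177 counts against 182 and 156. Its log2 fold change was -0.19 (SE 0.140, adjusted p 0.259), and it stood at -0.02 with library totals alone as scaling. The call of Hoxb4 was lost with DESeq2 and without control replicate 1.

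Hoxc lies on chromosome 15 from 102921131 to 103036856, on the plus strand, and its clearest change was at the posterior tip. Hoxc13, a gene of hair follicles, nails and the tail, had 13 and 18 counts in control and 69 and 58 in Ogt iKO, or 3.86 times the control CPM (log2 fold change 1.94, SE 0.278, adjusted p 0.000361, edgeR). Both Ogt iKO libraries were well above both controls, and the value ran from 1.71 to 2.19 with 1 library left out. Hoxc9, a gene of thoracic motor neurons, had 7 and 9 counts against 28 and 16 (1.36, SE 0.408, adjusted p 0.0173). It entered the test through the Ogt iKO libraries alone. Its groups did not overlap, but its call was lost with DESeq2, without Ogt iKO replicate 1 (0.98) and without either control. Hoxc4 had 26 and 24 counts against 49 and 28 (0.53, adjusted p 0.161), Hoxc5 had 22 and 19 against 19 and 12 (-0.49, adjusted p 0.237), and Hoxc6 had 20 and 19 against 39 and 25 (0.62, adjusted p 0.105). None of these 3 passed the test, although Hoxc6 did with library totals alone as scaling.

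For Hoxc8 and Hoxc10 the 2 Ogt iKO libraries disagreed. Hoxc8, a gene of thoracic vertebrae and forelimb motor neurons, had 18 and 20 counts in control, and 41 and 8 in Ogt iKO. Hoxc10, a gene of the lumbar region and hind limb, had 5 and 14 against 19 and 2. In both, Ogt iKO replicate 1 was above both controls and replicate 2 below both, which is also the order of the fibroblast markers (2227 CPM in replicate 1, 478 CPM in replicate 2, 856 and 987 CPM in control). The log2 fold change of Hoxc8 was 0.27 (adjusted p 0.702, edgeR) with all libraries, -1.24 without Ogt iKO replicate 1 and 0.93 without Ogt iKO replicate 2. That of Hoxc10 was 0.049 (adjusted p 0.961) with all libraries, and -2.18 without Ogt iKO replicate 1. The part that fibroblast RNA has in the Hoxc counts was not tested. In Hoxc13 the 2 Ogt iKO libraries were close, at 4.04 and 3.74 CPM. Hoxc11 had at most 4 counts and Hoxc12 at most 1 in any library.

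**Figure D3:**
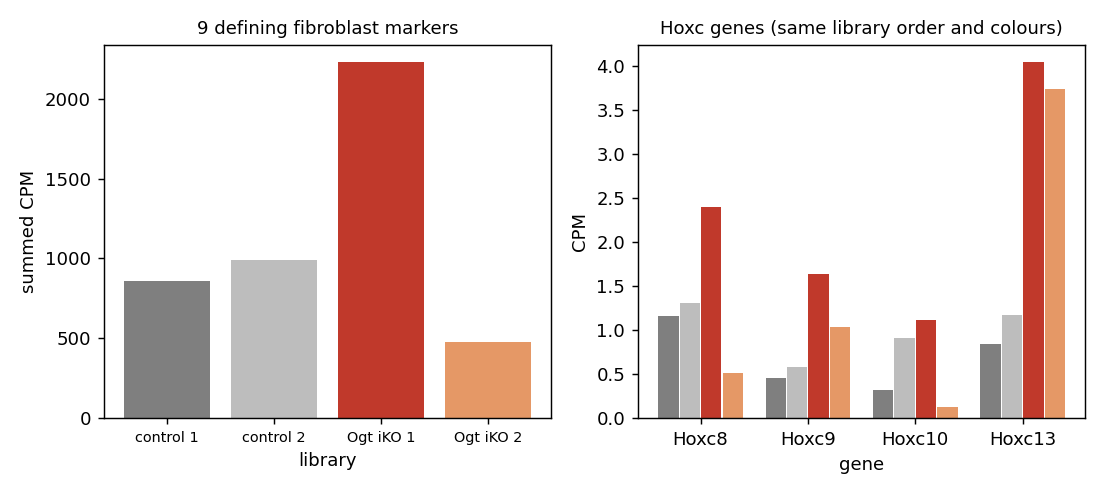
The left panel gives the summed CPM of 9 defining fibroblast markers in each library, and the right panel the CPM of Hoxc8, Hoxc9, Hoxc10 and Hoxc13 in the same library order and colours. Ogt iKO replicate 1 is the highest and replicate 2 the lowest bar for the markers, Hoxc8 and Hoxc10, whereas both Ogt iKO bars are above both controls for Hoxc9 and Hoxc13.

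Hoxd lies on chromosome 2 from 74668225 to 74765142, on the plus strand, and its called genes were the neighbours Hoxd8 and Hoxd9. Hoxd8 had 16 and 11 counts in control and 74 and 46 in Ogt iKO, 4.17 times the control CPM (log2 fold change 2.05, SE 0.329, adjusted p 0.000682, edgeR). Hoxd9, which like its paralogues patterns the lower spine and limbs, had 5 and 6 counts against 27 and 26, 4.56 times the control CPM (2.16, SE 0.374, adjusted p 0.00105). Hoxd9 entered the test through the Ogt iKO libraries alone, where it is high, so its direction and its passing of the filter are not independent. For both, the lower Ogt iKO library was over the higher control, and their log2 fold changes with 1 library left out ran from 1.76 to 2.33 and from 2.03 to 2.29. Without Ogt iKO replicate 1 they were at 1.76 and 2.21. Of the Ogt iKO libraries, replicate 1 was the higher for Hoxd8 (4.33 and 2.97 CPM) and the lower for Hoxd9 (1.58 and 1.68 CPM). The part that fibroblast RNA has in the Hoxd counts was not tested. Hoxd13, the digit and hindgut gene at the posterior tip, had 43 and 46 counts against 63 and 48 and did not pass the test (0.23, adjusted p 0.394). Hoxd1, at the anterior tip, had 8 and 7 against 10 and 12 (0.47, adjusted p 0.382). Left without Hoxd13, the ratio of the Hoxd sums was 2.57.

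The genes of Hoxd between these were close to undetected. Hoxd4 had 9 and 7 counts in control against 6 and 9 in Ogt iKO, Hoxd11 had 4 and 4 against 9 and 5, and Hoxd12 had 1 and 6 against 5 and 4. Hoxd3 had at most 2 counts and Hoxd10 at most 5 in any library. These genes were not tested, and a count of 0 allows up to 3 counts, or 0.175 to 0.196 CPM in these libraries, for counting error only. In GENCODE, Hoxd3 and Hoxd4 share 62.3% and 52.3% of their exon length with each other and another transcript of the same strand, so their counts cannot be fully told apart.

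**Figure D4:**
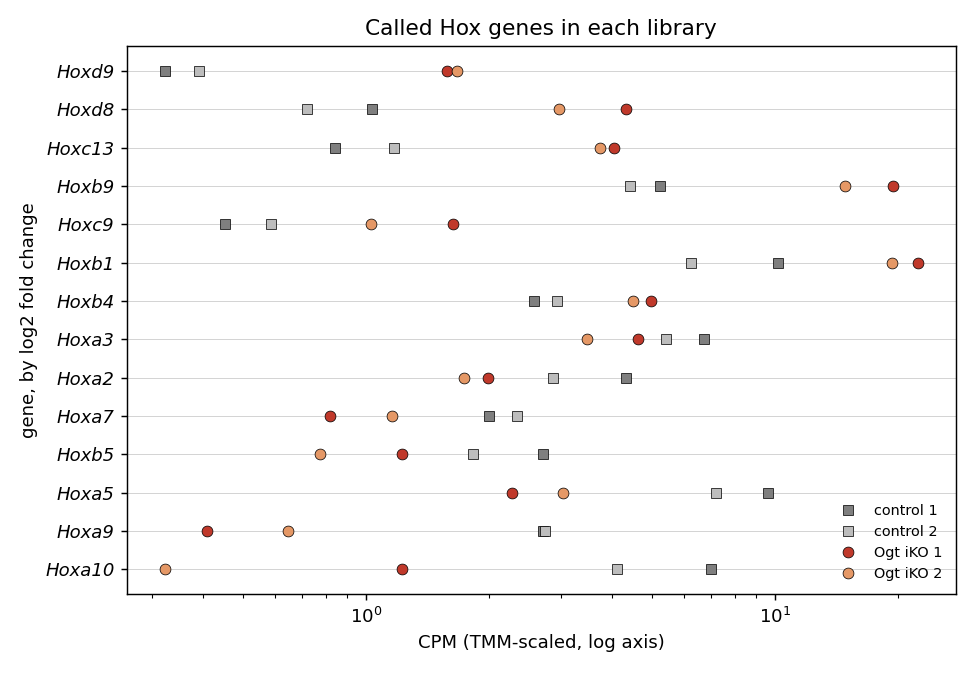
CPM on a log axis, in each library, of the called Hox genes reported here, ordered by log2 fold change from Hoxa10 at the bottom to Hoxd9 at the top. Squares are the controls and circles the Ogt iKO libraries. In every row both circles lie on the same side of both squares. The genes shown were picked by their calls, and 83.2% of all genes tested had groups that do not overlap.

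Paralogues of the same number, which encode similar proteins in different clusters, did not all go the same way. In group 9, Hoxb9, Hoxc9 and Hoxd9 rose while Hoxa9 fell. Hoxc9 and Hoxd9 entered the test through the Ogt iKO libraries alone, where they are high, and the call of Hoxc9 was lost with DESeq2. The summed level of the group was 8.72 and 8.15 CPM in control and 23.1 and 18.2 CPM in Ogt iKO. Of that sum Hoxb9 held 5.23 and 4.43 CPM in control and 19.5 and 14.8 CPM in Ogt iKO. In group 5, Hoxa5 and Hoxb5 were both lower, with a sum of 13.8 and 10.2 CPM against 4.62 and 4.58 CPM. In group 10 the sum was 7.43 and 5.02 CPM in control, mostly Hoxa10, and 2.63 and 0.516 CPM in Ogt iKO. Grouped by position instead of by number, no direction was settled. The anterior (1 to 3), central (4 to 8) and posterior (9 to 13) genes had summed ratios of 1.03, 0.848 and 1.31, and these turned to 0.708, 1.04 and 0.907 without the single gene with the most counts, which was Hoxb1, Hoxa5 and Hoxb9 in turn.

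These changes altered the order of abundance of the Hox genes. Per kilobase of exon, the level of Hoxb1 was 3.55 CPM per kb ± 1.20 (SD, n = 2) in control and 8.99 ± 0.932 in Ogt iKO, and that of Hoxb9 was 1.88 ± 0.220 and 6.66 ± 1.28. The level of Hoxb13 was 5.35 CPM per kb ± 0.174 in control and 4.69 ± 0.189 in Ogt iKO, and that of Hoxa5 was 4.47 ± 0.925 and 1.41 ± 0.282. Within these spreads Hoxb13 was not separated from Hoxa5, nor Hoxa5 from Hoxb1, in control, whereas in Ogt iKO the order Hoxb1, Hoxb9, Hoxb13 and Hoxa5 had no such overlap. By level per kilobase, Hoxa5 went from rank 3 to rank 8 and Hoxa10 from rank 8 to rank 29 of the 39 genes, while Hoxc13 went from rank 24 to rank 7 and Hoxd8 from rank 26 to rank 10. In counts, Hoxb1 and Hoxb9 together were 32.8% and 33.0% of all Hox counts in Ogt iKO and 13.1% and 10.7% in control.

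Other genes in and beside the clusters were read next, for their values beside those of the Hox genes. Inside Hoxa, 2 of 9 other genes were tested and both fell. The noncoding RNA Hotairm1, near the anterior end, had 48 and 38 counts in control against 30 and 22 in Ogt iKO (log2 fold change -0.81, adjusted p 0.0287, edgeR), and Mira, between Hoxa6 and Hoxa7, had 54 and 34 against 18 and 23 (-1.17, adjusted p 0.0131). Both calls were lost with DESeq2 and without control replicate 1, and that of Hotairm1 also with library totals alone and without Ogt iKO replicate 2. On the anterior flank of Hoxa, Halr1 (-0.57), Skap2 (-0.33) and Snx10 (-0.46) fell, Skap2 not with library totals alone as scaling. Of all genes tested 32.0% were called lower, and the tested flanking genes of Hoxc and Hoxd fell as well, so falling flanks were not particular to Hoxa. Evx1, the homeobox gene past the posterior end, had 10 and 7 counts against 3 and 2 and was too low to test, and Hottip was at 0 in all 4 libraries. Inside Hoxb the noncoding gene Gm53 rose (0.75, adjusted p 0.0320), a call lost with DESeq2, without Ogt iKO replicate 1 and without control replicate 1, and Gm11538 was not called (-0.39). Beside Hoxb, Calcoco2 fell (-0.53). Skap1 rose (1.09, adjusted p 0.0221), a call lost with DESeq2 and with any library left out, while Atp5g1 (-0.62), Ttll6 (-0.59) and Snx11 (0.26) were not called.

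The flanking genes of Hoxc and Hoxd that were tested, 3 and 2 in number, were all called lower, where 32.0% of all genes tested were, and no test set them against the Hox genes. Beside Hoxc, Calcoco1 (log2 fold change -0.23), Smug1 (-0.53) and Cbx5 (-0.39) fell, although scaling by library totals alone ended the calls of Calcoco1 (-0.059) and Smug1 (-0.36), as did leaving out Ogt iKO replicate 2 or control replicate 1, and DESeq2 that of Calcoco1. On either side of Hoxd, Lnpk fell by 0.67 (adjusted p 0.000115, edgeR) and Mtx2 by 0.56 (adjusted p 0.000417). Hotair, in Hoxc, was at 0 in all libraries, and Haglr, in Hoxd, had 3 to 5 counts.

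**Figure D5:**
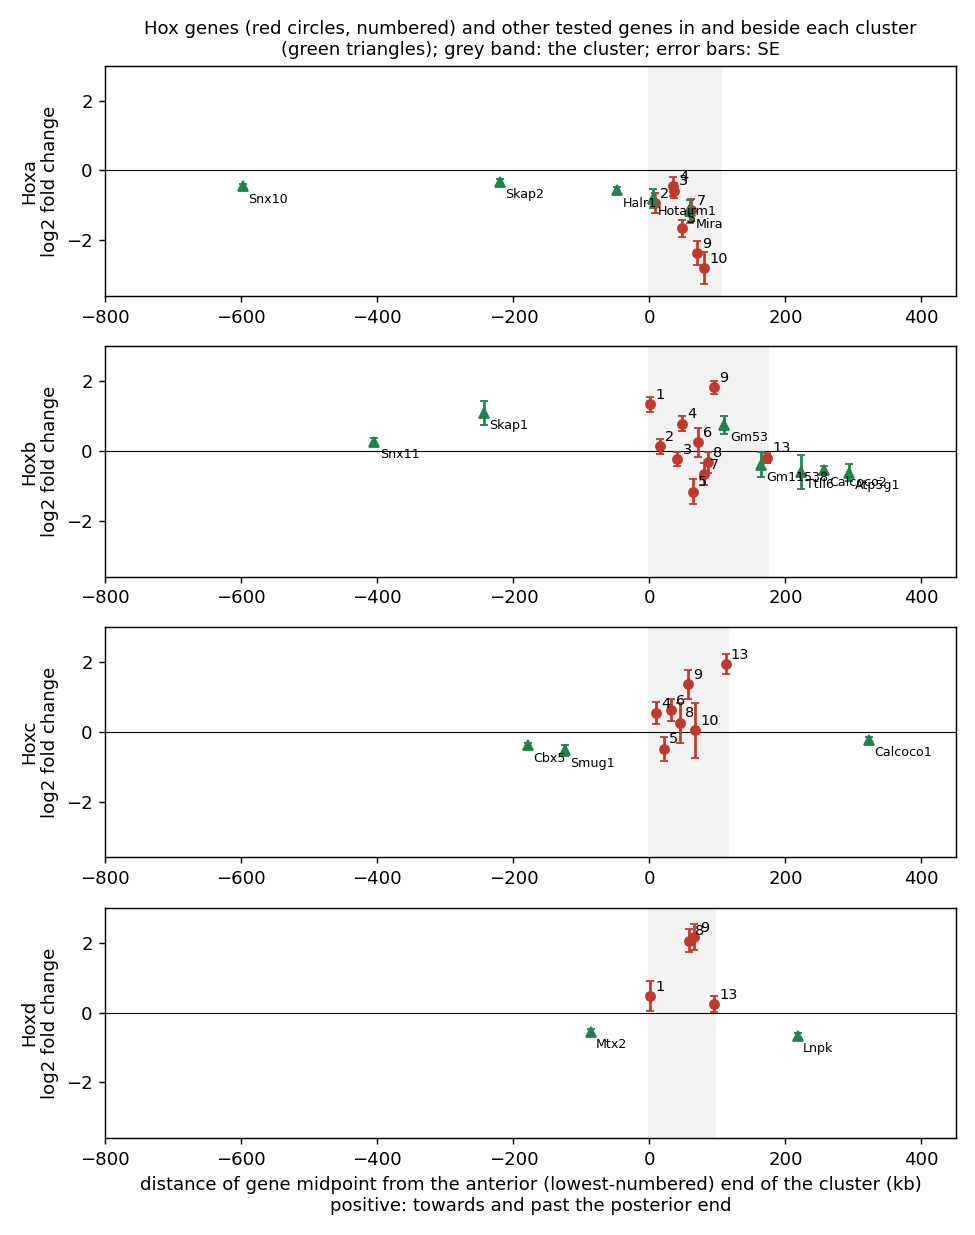
Log2 fold changes, with standard errors, of the tested Hox genes reported here (red circles with their numbers) and of other tested genes (green triangles) against the distance in kb from the anterior end of each cluster, which is shaded grey. Lnpk and Mtx2 lie below 0 on both sides of Hoxd, whose tested genes lie above it, and all genes shown in and beside Hoxa lie below 0.

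Lists of genes that act with or on Hox genes were also counted, at the same threshold and against the same 65.3% of all genes called. Of 9 TALE homeodomain cofactors, which bind DNA together with Hox proteins, 4 rose and 3 fell. Pknox2 rose by 1.99, from 12.6 and 13.6 CPM in control to 50.9 and 53.2 CPM in Ogt iKO, Meis2 by 1.12 and Meis3 by 0.89, while Pbx3 fell by 1.36 on the log2 scale. Meis1 was not called (0.091). Of 18 tested genes of the retinoic acid pathway and the Cdx family, 7 rose and 4 fell. Stra8, a gene named for its induction by retinoic acid, rose by 1.42. Rara, a receptor, fell by 0.60 and Crabp1, a retinoic acid binding protein, fell by 1.52. Of the Cyp26 enzymes, which clear retinoic acid, Cyp26b1 was called higher (14 and 14 counts in control, 40 and 20 in Ogt iKO, log2 fold change 1.00, adjusted p 0.0431, edgeR), a gene named after its values were seen. Its call was close to the threshold, and the alternative scalings and tools were not read for it. Cyp26c1 was too low to test (1 and 1 against 6 and 6). Cyp26a1 (8 and 14 counts in control, 17 and 20 in Ogt iKO) and Cdx2 (17 and 18 against 25 and 23) were not called.

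Among the chromatin regulators of Hox genes, 9 of 20 Polycomb genes fell and 7 rose. Ezh2, the main methyltransferase of Polycomb repressive complex 2, fell by 1.49 (320.6 and 302.8 CPM in control, 108 and 114 CPM in Ogt iKO), and Jarid2 by 0.80, while Bmi1 rose by 1.08 and Phc2 by 0.94. Of 12 trithorax genes and demethylases 7 fell and 1 rose. Psip1 fell by 0.61, Kmt2c by 0.68 and Rbbp5 by 0.51, Men1 rose by 0.32, and Kmt2a was not called (0.26, adjusted p 0.110, edgeR), although it was called higher with library totals alone, with the replicate block, without Ogt iKO replicate 2 and without control replicate 2. Of 10 ParaHox and Hox-related homeobox genes 3 were tested. Gbx2, a gene of the midbrain-hindbrain boundary, fell by 2.12 (1284 and 975 counts in control, 282 and 268 in Ogt iKO) and Gsx1 fell by 1.80, whereas Meox1 was not called (-0.27).

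Markers of cells in which Hox genes are active did not move as a block. Of 10 tested markers of primitive streak and presomitic mesoderm 5 rose and 3 fell, with Pax3 up by 1.72 and Eomes up by 1.23, and with log2 fold changes of -2.49 for Tcf15 and -3.42 for Wnt3a, which went from 37 and 26 counts to 4 and 2. Of 10 tested neural markers 3 rose and 6 fell, with Neurod1 up by 1.23 and with -2.36 for Sox1, -1.91 for Pax6 and -1.40 for Tubb3. With all libraries, 6 of 26 fibroblast markers rose and 0 fell, although the log2 fold changes of Col1a1, Col1a2, Dcn and Twist2 were below 0 without Ogt iKO replicate 1. The risers included Tagln (2.60), Acta2 (1.72), Pdgfrb (1.61) and Twist1 (1.45).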

How the data were processed

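The authors deposited raw counts per gene symbol, 1 table per library, as whole numbers, with 0 rows that name no gene. STAR, Picard and the build mm10 are named in the submitters' processing notes, without versions; the annotation, the counted strand and the treatment of reads with several positions are not given in the sources used here. Samples were grouped by their titles. Total counts ran from 14668489 to 16504204 per library, so genes of a few counts are limited by counting error.

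Counts were tested with edgeR 4.0.16 (R 4.3.3; quasi-likelihood test, TMM, filterByExpr, all 4 libraries, no covariate, checked on simulated data), with Benjamini-Hochberg adjustment over 14525 genes and calls at an adjusted p under 0.05. CPM values use TMM-scaled library sizes. Standard errors came from the fold change and its statistic. Positions are from RefSeq and exon models from GENCODE M21, both of GRCm38, the assembly mm10 names. All 39 Hox genes had a GENCODE exon model. Levels per kb use the union of GENCODE exons.

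The Hox genes and the other lists were chosen with earlier results of these data known. Values are given for Hox genes tested or with at least 10 counts in sum, for up to 4 genes of each other list with the smallest adjusted p and for Meis1, Cdx2, Cyp26a1, Kmt2a and Ezh2, and for tested genes inside the clusters and among the 3 nearest genes of the tables on each flank. Some genes that this rule names are not reported here singly, though counts, sums and medians include them. Alternatives were other scalings (RLE, upper quartile, library totals), DESeq2 1.42.0, other filters, a stricter threshold of 0.01, a robust spread, a block for the replicate number, and leaving out each library. The numbers shared by replicates did not mark a shared culture in the labels.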

Additional observations from a re-analysis of the deposited data

How the results depend on the processing

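Of the counts of called Hox genes, 7 higher and 8 lower, the lower count moved most. DESeq2 left 4 lower and 9 called in all, and an adjusted p under 0.01 left 4 lower. With 1 library left out, the higher count ran from 5 to 8, the lower count from 5 to 10 and the total from 10 to 16, and the median log2 fold change of the tested Hox genes ran from -0.51 (without Ogt iKO replicate 1) to 0.24. The fit with the replicate number as a block gave the same 7 and 8 calls, with a median of -0.022. That median was -0.0050 with DESeq2 and -0.21 with a filter of 1 CPM in 2 libraries. The deviations of same-numbered libraries had a correlation of 0.086 across genes, so the numbers were not taken as pairs. Of 15 called genes 9 were called in every alternative that kept all libraries, and 6 were lost in at least 1. Among the uncalled genes Hoxc6 gained a call with library totals alone. The cause was not tested.

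The summed ratio of all Hox genes (1.06) was 0.941 without Hoxb1 and ran from 0.951 to 1.17 with 1 library left out, and that of the anterior genes (1.03) was 0.708 without Hoxb1 and ran from 0.926 to 1.17. The central ratio was 1.04 without Hoxa5, the posterior ratio 0.907 without Hoxb9, the Hoxd ratio 2.57 without Hoxd13, and the Hoxc ratio 0.901 without Hoxc13 and Ogt iKO replicate 1, an alternative chosen after seeing the data. The cluster ratios ran from 0.432 to 0.520 for Hoxa, 1.35 to 1.68 for Hoxb, 1.27 to 2.05 for Hoxc and 1.71 to 2.03 for Hoxd with 1 library left out.

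Signs turned for 10 genes not called with all libraries, some of which were called without 1 library. With 1 library left out, log2 fold changes ran from -0.12 to 0.42 for Hoxb2, -0.085 to 0.67 for Hoxb6, -1.24 to 0.93 for Hoxc8 and -2.18 to 0.95 for Hoxc10, which was also at -0.022 with the replicate block and -0.0050 with DESeq2. They ran from -0.12 to 0.25 for Meis1, -0.75 to 1.55 for Col1a1, -0.59 to 1.30 for Col1a2, -1.75 to 0.35 for Dcn, -1.43 to 0.014 for Twist2 and -1.18 to 0.37 for Ttll6. With library totals alone, the median over all genes tested was 0.19 in place of 0.024, and 7 of the Hox genes were lower and 8 higher under it. With no filter on low counts all 39 Hox genes were tested, with 7 higher and 7 lower. At a few counts per library, counting error limits what can be detected.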
